A study of Bos grunniens with 6 samples.

Results

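Ion channels are membrane proteins that let sodium, potassium, calcium or chloride pass, and ion pumps use ATP to rebuild the gradients on which the channels depend. In the testis, calcium released from intracellular stores, chloride and volume-regulated anion currents and the voltage across the membrane serve germ cells and the Sertoli, Leydig and peritubular cells around them, and mature sperm rely on channels and calcium pumps for motility and capacitation. N6-methyladenosine (m6A) is a methyl mark on adenosines within mRNA that is placed by a methyltransferase complex around METTL3 and METTL14 and read by proteins of the YTH family, which affect the splicing, translation and decay of the transcript. The ion channel genes described here were those of the m6A peak list of cattle-yak testis whose symbol begins with the name of a channel, channel subunit or ion pump family (CACN, KCN, SCN, HCN, TRPC, TRPM, TRPV, PKD, RYR, ITPR, ORAI, STIM, CLCN, CLIC, ANO, LRRC8, PIEZO, TMC, P2RX, GRIA, GRID, GRIK, GRIN, GABR, CHRN, ATP1A, ATP1B, ATP2A, ATP2B and ATP2C). They comprised 116 gene identifiers with 107 symbols and 217 peaks, of 8986 identifiers and 16186 peaks in all. The symbol alone chose them, so a channel gene without a listed peak is not among them and no share of all channel genes with a peak can be given.

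Testis tissue came from 3 cattle-yaks, the hybrids of cattle and yak, which were healthy and 5 years of age and were castrated to obtain the tissue. The labels name no treatment. Each animal (TES5, TES6 and TES7) gave 1 library of RNA pulled down with an antibody against m6A (IP) and 1 library of the same RNA before the pull-down (input), 6 libraries in all and 1 condition, so there is no contrast to test. The peak list is 1 list for all 3 animals with no score and no value per animal, and expression was available as FPKM (read density per transcript length, scaled to library size) of the 3 input libraries, which can be compared between genes as well as between animals. Male cattle-yaks are sterile, and in whole testis fewer cells of a type and less RNA per cell cannot be told apart.

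The tissue label was checked against cell type markers among the genes with a peak, since only those carry symbols. Markers of peritubular myoid cells (*ACTA2*, 237 ± 14.7 FPKM, SD, n = 3), Leydig cells (*STAR*, 107 ± 5.95) and Sertoli cells (*SOX9*, 27.5 ± 0.807, and *WT1*, 29.6 ± 4.94) were expressed in every animal, as were the spermatogonial markers *KIT* (10.02 ± 1.91) and *ZBTB16* (8.85 ± 2.29) and the spermatocyte marker *SYCP3* (20.7 ± 3.30). The spermatogonial marker *GFRA1* was below 1 FPKM in every animal (0.790 ± 0.193), and the 4 identifiers of *SYCP2* had means from 0 to 5.71. Endothelial markers had means of 2.17 to 3.27 FPKM and macrophage markers means of 3.53 to 4.83. None of the 5 spermatid markers and none of the 2 erythroid markers was found in the peak list, so their levels are unknown here.

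Every family of the pattern except the sodium pump alpha subunits (ATP1A), the delta and kainate glutamate receptor subunits (GRID and GRIK) had at least 1 gene with a peak. Potassium channels, which set the resting potential and end action potentials, were the most numerous, with 31 identifiers and 47 peaks. The voltage-gated calcium channel subunits followed with 13 identifiers and 22 peaks, ligand-gated channels with 12 and 17, chloride channels with 10 and 14, and the TRP channels, cation channels that respond to lipids, heat and second messengers, with 7 and 12. The LRRC8 subunits of the volume-regulated anion channel had 14 peaks on 6 identifiers, the ion pumps 16 on 6, and the calcium release channels of the endoplasmic reticulum 14 on 5. The 5 genes whose symbols fit the pattern but whose products bind or regulate channels (*KCNIP1*, *ITPRID2*, *ITPRIP*, *ITPRIPL1* and *ITPRIPL2*) had 13 peaks.

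**Figure D1:**
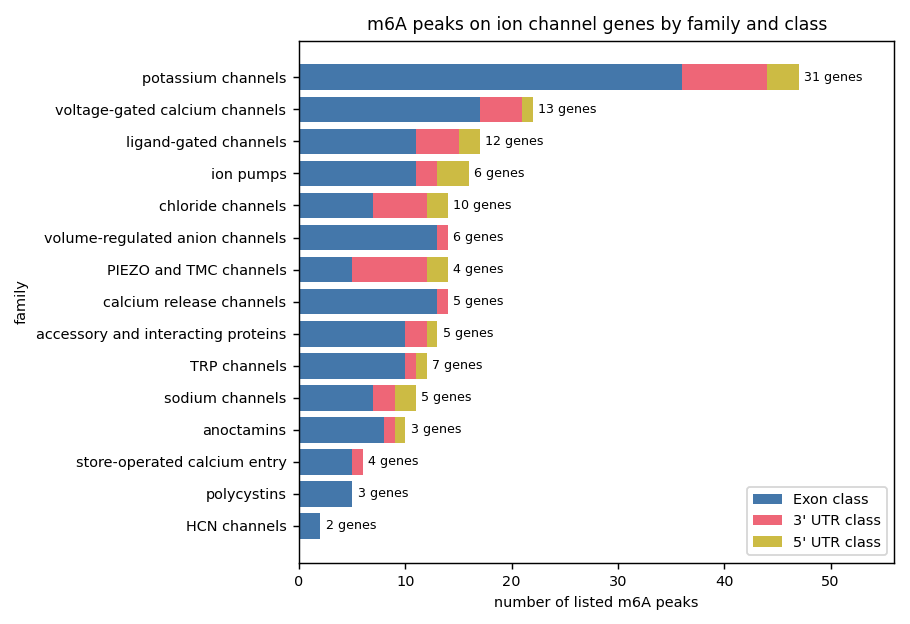
Number of listed m6A peaks (horizontal axis) on the ion channel genes of each family, with each bar split by peak class and the number of gene identifiers beside it. The exon class is the longest part of every bar except that of the PIEZO and TMC channels, where 7 of 14 peaks are in the 3' UTR class. Of these 7, 6 are on *TMC4*, in pairs that overlap almost entirely, so the exception rests on that gene.

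Of the 217 peaks, 160 had the exon class (73.7%, Wilson 95% interval 67.5% to 79.1%), while the 3' UTR class counted 39 (18.0%, 13.4% to 23.6%) and the 5' UTR class 18 (8.29%, 5.31% to 12.7%). Over all listed peaks the 3' UTR class held 20.8% and the 5' UTR class 8.82%, both inside these intervals, which cover counting error only. Genes for solute carriers and ABC transporters, the other large group of membrane transport genes (155 identifiers, 265 peaks), had a 3' UTR class share of 29.4% (24.3% to 35.2%), above the interval of the ion channel genes, and an exon class share of 57.4% (51.3% to 63.2%), below it. The difference between these 2 groups was not tested. The classes are those of the authors' annotation, and a peak that spans introns and several exons has a single class.

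Exon class peaks were numbered along the transcript, and 41 of the 160 lay in the last exon (25.6%, 19.5% to 32.9%), against 18.2% of all exon class peaks. Transcripts of 1 exon count here as last, and 12 of the 160 peaks lay on such transcripts, among them 2 on *KCNA3*, 1 on *KCNA4*, 2 on *KCNS3* and 1 on *KCNF1*, voltage-gated potassium channel genes listed with a single exon. Without transcripts of 1 or 2 exons the share in the last exon was 15.8% (10.6% to 22.9%), an interval that holds the 11.6% of all such exon class peaks. Measured along the listed transcript, introns included, the median midpoint was at 79.1% of the span from its start (73.9% over all listed peaks), and 36.4% of the peaks lay in the last 10% (30.3% to 43.0%, against 31.1%).

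The peaks on ion channel genes were narrower at the median than the list as a whole. Their median width on the genome was 500 bp (95% interval of the median 349 to 701 bp, quartiles 200 and 2449 bp), whereas it was 1022 bp over all listed peaks. A width of up to 1000 bp was found for 136 of the 217 (62.7%, 56.1% to 68.8%) against 49.8% of all listed peaks, and one of up to 200 bp for 28.1% (22.6% to 34.4%) against 15.5%. Solute carrier and ABC transporter genes had 67.2% of at most 1000 bp (61.3% to 72.5%), with an interval that overlaps that of the ion channel genes.

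**Figure D2:**
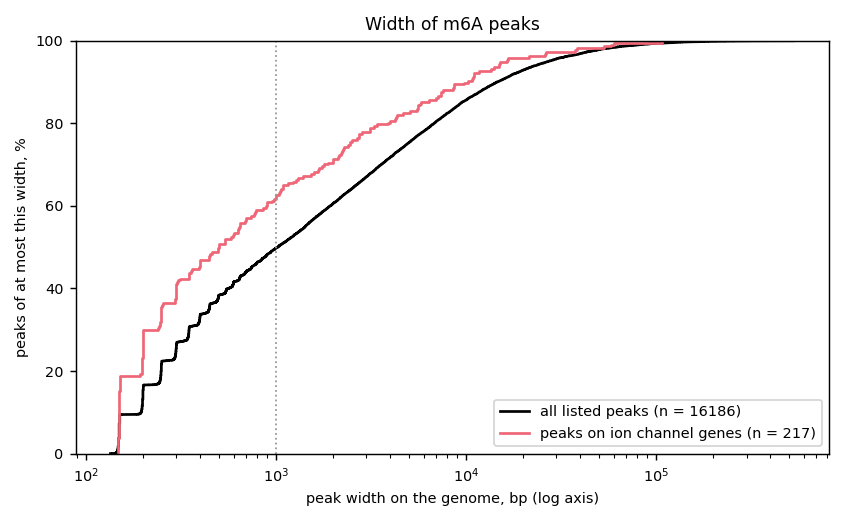
Share of peaks (vertical axis, %) of at most a given width on the genome (horizontal axis, bp, log axis) for the 217 peaks on ion channel genes and for all 16186 listed peaks, with a dotted line at 1000 bp. At that line the curve of the ion channel genes stands at 62.7% and that of all peaks at 49.8%.

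Width moved with expression. Peaks on ion channel genes that reached 1 FPKM in every input library had a median width of 741 bp (n = 155 peaks), and those on the other ion channel genes one of 200 bp (n = 62), and over all listed peaks the same values were 1236 bp and 343 bp, the second with genes absent from the FPKM table included. Within a range of mean FPKM from 5 to 20, peaks up to 1000 bp wide made up 41.7% on ion channel genes (28.8% to 55.7%, n = 48) and 42.7% on all genes with a peak, so the shares were close there. In the range from 1 to 5 they made up 66.0% (56.3% to 74.5%, n = 100) against 57.2%, and below 1 they made up 83.0% (69.9% to 91.1%, n = 47) against 71.9%. At 20 FPKM and above they made up 50.0% (30.7% to 69.3%, n = 22) against 43.3%. The part of expression in the difference of width was not tested.

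Expression of the ion channel genes was low beside that of other genes with a peak. In every input library, 72 of 116 reached 1 FPKM (62.1%, 53.0% to 70.4%), against 86.9% of the 8775 genes with a peak that are in the FPKM table and 127 of 155 solute carrier and ABC transporter genes (81.9%, 75.1% to 87.2%). The median of the mean FPKM was 2.40, against 7.36 over all genes with a peak. Below 1 FPKM in every library were 31 of 116 (26.7%, 19.5% to 35.4%), against 7.72%. By family, 11 of 31 potassium channel identifiers, 5 of 13 calcium channel identifiers and 3 of 5 sodium channel identifiers were below 1 in every animal, while all 10 chloride channel identifiers, all 6 pumps and all 4 ORAI and STIM genes were at 1 or more in every animal.

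**Figure D3:**
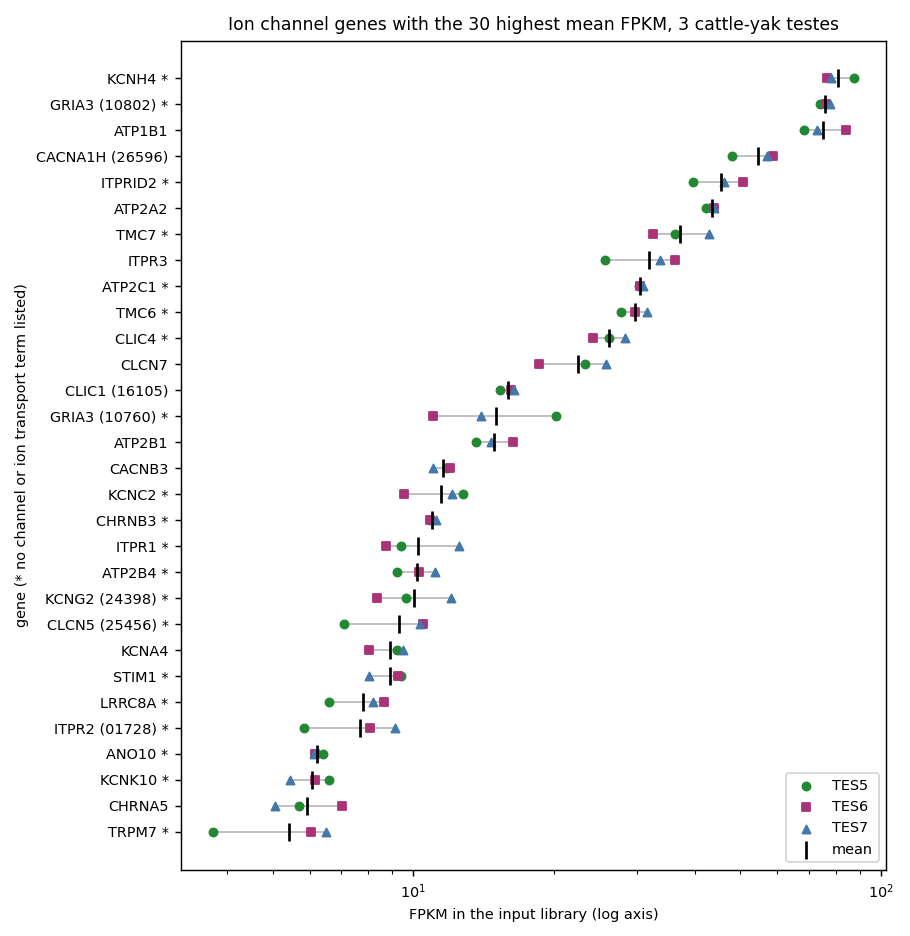
FPKM in the input library of each animal (horizontal axis, log axis; circles TES5, squares TES6, triangles TES7, bars the mean of 3) for the 30 ion channel genes with the highest mean, with the last 5 digits of the identifier where a symbol is on more than 1. The means run from 5.42 (*TRPM7*) to 80.7 (*KCNH4*), and an asterisk marks genes whose listed terms name no channel or ion transport.

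The ion pumps were the family with the highest median expression, at 22.7 FPKM. *ATP1B1* (ENSBGRG00000014219), the beta subunit of the sodium-potassium pump, which brings the pump to the plasma membrane, had 68.3, 84.2 and 73.1 FPKM in TES5, TES6 and TES7. TES6 was the highest animal, and all 3 values lay above every value of the calcium channel gene *CACNA1H* that followed it in order. On chromosome 14 of LU_Bosgru_v3.0, its listed transcripts run on the plus strand from 32963428 to 33045075, and it carried 2 peaks of 148 bp each in the 5' UTR class (32963820 to 32963967 and 32964114 to 32964261) and a peak of 2689 bp (32983935 to 32986623) on exon 3 of 7.

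*ATP2A2* (SERCA2), which returns calcium to the endoplasmic reticulum, had 42.2, 44.0 and 43.9 FPKM, a spread of 43.4 ± 1.00 (SD, n = 3). Its peaks, of 15125 bp and 149 bp, were placed on exons 2 and 8 of 20. *ATP2C1*, the calcium and manganese pump of the Golgi apparatus, had the smallest relative spread of the named genes, with 30.3, 30.5 and 30.9 FPKM and a coefficient of variation of 1.04%, and its single peak was a 349 bp interval in the 3' UTR class. The plasma membrane calcium pumps, which expel calcium from the cell, had more peaks at lower expression.

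*ATP2B1* (ENSBGRG00000002414, chromosome 5, plus strand, 88893190 to 88968433) had 5 peaks at 13.6, 16.4 and 14.7 FPKM. These were annotated to exons 1, 5, 9 and 19 of 21 and to the 3' UTR class, so that they were spread from one end of the transcript to the other. *ATP2B4*, the plasma membrane calcium pump known for its role in sperm motility, had 4 peaks at 9.21, 10.3 and 11.1 FPKM, 1 in the 5' UTR class and 3 annotated to exons 5, 20 and 22 of 22. Its last peak began 10 bases inside the listed end of the transcript and ran past it.

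The inositol trisphosphate receptors, the channels through which calcium leaves the endoplasmic reticulum, included the calcium channel identifier with the most listed peaks, *ITPR1*. As the list has no score, a number of peaks gives no degree of methylation. *ITPR1* (ENSBGRG00000024500, chromosome 22, plus strand, 43565919 to 43951611) had 9.42, 8.74 and 12.5 FPKM and 5 exon class peaks, annotated to exons 17, 21, 26, 46 and 58 of 61. Their widths ran from 1386 to 38339 bp, the widest at the far end of the transcript. None of the 5 lay before exon 17.

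*ITPR2* is on 2 identifiers. ENSBGRG00000001728 (chromosome 5, minus strand, 19821144 to 20459903) had 5.83, 8.08 and 9.14 FPKM and 4 peaks annotated to exons 16, 40, 44 and 56 of 57, with a widest peak of 53394 bp. ENSBGRG00000001852 is a 1675 bp transcript inside the first one, from 20274976 to 20276650, and it is listed at 0 FPKM in all 3 animals. Its only peak, of 37558 bp, contains the whole transcript and is annotated to exon 9 of 57 of the other identifier. By symbol, *ITPR2* therefore had 5 peaks, like *ITPR1*.

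*ITPR3* had the highest expression of the 3 receptors, with 25.7, 36.3 and 33.7 FPKM, and only 2 peaks, a 2449 bp peak in the 3' UTR class and a 1756 bp peak annotated to exon 26 of 58. Its lowest animal stood above the highest value of *ITPR1* (12.5 in TES7) and of *ITPR2* (9.14 in TES7). The receptor with the highest expression thus had the fewest peaks. All 3 genes have transcripts of 57 to 61 exons, but *ITPR3* had the shortest span. Its span was 79663 bp, against 385693 bp for *ITPR1* and 638760 bp for *ITPR2* (ENSBGRG00000001728). The part of span or expression in the number of peaks was not tested. *RYR2*, a calcium release channel best known from heart muscle, had 0.730, 1.21 and 0.898 FPKM and 2 peaks, both annotated to exon 90 of 105, and no other ryanodine receptor was in the peak list. *ITPRID2*, which binds inositol trisphosphate receptors and is no channel itself, had 39.7, 50.7 and 46.2 FPKM and 5 peaks, 3 of the exon class and 1 of each UTR class.

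**Figure D4:**
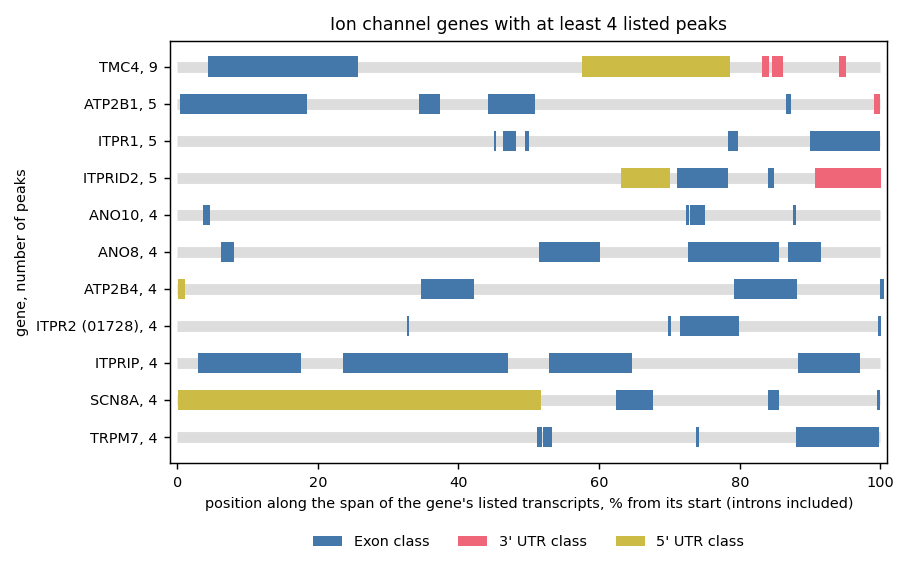
Position of each listed peak (coloured by class) along the span of the gene's listed transcripts (horizontal axis, % from the start in the direction of transcription, introns included) for the 11 ion channel genes with at least 4 peaks, whose number is beside the symbol. The peaks of *ITPR1*, *ITPRID2* and *TRPM7* lie past the first 40% of the span, and a single 5' UTR class peak reaches to 51.8% of the span of *SCN8A*.

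Store-operated entry refills the stores through ORAI channels in the plasma membrane, opened by the STIM sensors of the endoplasmic reticulum. *STIM1* had 9.39, 9.25 and 8.03 FPKM with peaks of 10998 bp on exon 6 and 349 bp on exon 13, the last. *STIM2* had 2.33, 2.57 and 2.52 FPKM and also 2 peaks, annotated to exons 6 and 13 of 13. The 2 sensors thus carried peaks on the same exon numbers at levels that did not overlap, *STIM1* being higher in every animal. *ORAI1*, the pore subunit, had 6.24, 4.55 and 4.91 FPKM and a 192 bp peak in the last of its 4 exons.

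Among voltage-gated calcium channels, *CACNA1H* (ENSBGRG00000026596), the T-type channel Cav3.2, stood far above the others, with 47.9, 58.6 and 57.0 FPKM. The second gene of the family by expression, the beta subunit *CACNB3*, had 11.8, 11.96 and 11.0, and the median of the 13 identifiers was 0.936. *CACNA1H* (chromosome 26, minus strand, 46839698 to 46905006) had 3 peaks, of 1000 bp in the 3' UTR class (46840297 to 46841296), of 201 bp annotated to exon 32 of 34 and of 2003 bp annotated to exon 8. The other T-type gene with a peak, *CACNA1G*, had 0.784, 1.33 and 0.693 FPKM and 2 peaks.

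A second identifier with the symbol *CACNA1H*, ENSBGRG00000007021, lies 63.2 kb away on the plus strand and had 0.762, 0.335 and 0.0927 FPKM, so that TES5 made up most of its sum, and its mean of 0.397 became 0.214 without TES5. Its listed terms name flagellated sperm motility, sperm flagellum and cilium assembly and no channel. The L-type genes *CACNA1D*, known from pacemaking and hormone release, and *CACNA1S*, known from skeletal muscle, had 3 peaks each at 1.34 ± 0.216 and 1.68 ± 0.228 FPKM (SD, n = 3). One *CACNA1D* peak, of 1305 bp, is annotated to an exon of another identifier. The widest calcium channel peak, of 58122 bp, lay on *CACNA2D2* (ENSBGRG00000024741), an auxiliary alpha-2-delta subunit with 3.18 ± 0.555 FPKM, and is annotated to exon 3 of 39.

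Peaks on potassium channel genes had a median width of 249 bp, against 500 bp over all ion channel genes. A single peak was listed for 17 of 31 identifiers, near the 54.0% of all genes with a peak. The voltage-gated subunits, 22 identifiers with 32 peaks, had a median of the mean FPKM of 1.15, and the inward rectifiers, 5 identifiers with 9 peaks, one of 0.356. *KCNC4*, a subunit of fast-spiking type, had 3 peaks of exactly 150 bp, 2 in exon 1 and 1 in exon 2 of 4, at 0.907, 1.29 and 1.37 FPKM. *KCNK10*, a 2-pore leak channel, had 3 much wider peaks, of 14985 bp in the 5' UTR class and of 5843 and 2259 bp annotated to exons 6 and 12 of 12, at 6.60, 6.15 and 5.44 FPKM. *KCNJ6* (an inward rectifier opened by G proteins) is listed at 0 FPKM in all 3 animals and yet has a 150 bp peak, annotated to exon 3 of its own 4.

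The highest expression of all the ion channel genes was listed under *KCNH4* (ENSBGRG00000011839), with 87.5, 76.7 and 78.0 FPKM. It lies on the plus strand of chromosome 19 from 23816538 to 23822367 and had a single peak of 2162 bp in the 3' UTR class, from 23819616 to 23821777. The terms listed for this identifier name GTPase activity, Rab protein signal transduction and early endosome, and none names potassium or a channel, so what its level says of a potassium channel cannot be told from these tables. *KCNG2* (ENSBGRG00000024398), with 9.66, 8.35 and 12.04 FPKM, is listed with phospholipid translocation and the trans-Golgi network, whereas the second *KCNG2* identifier (ENSBGRG00000024339), with 0.687, 1.79 and 0.832, has a channel term. *KCNH7*, listed with a microtubule-severing term and at 0 FPKM in all 3 animals, had 2 peaks, both annotated to exons of another identifier whose FPKM was 1.68, 3.25 and 3.02.

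The listed terms were therefore read for every gene. They name a channel or ion transport for 67 of the 116 identifiers (57.8%, 48.7% to 66.4%). For 16 the terms name RNA-directed DNA polymerase and no channel or ion transport (13.8%, 8.67% to 21.2%, against 14.8% of all identifiers with a peak), among them *ITPR1*, both identifiers of *ITPR2*, *STIM1* and *CLIC4*. For 15 the terms name only cell compartments or metal ion binding, and for 11 no term is listed. For 7 another function is named (among them *KCNH4*, *KCNH7*, *TMC4*, *ITPRID2* and 1 of the 2 identifiers each of *KCNG2* and *CACNA1H*). A channel or ion transport term was listed for 8 of the 21 genes with a mean of at least 10 FPKM. The 67 genes with such a term had 119 peaks with a median width of 301 bp (95% interval of the median 249 to 538 bp), a median of the mean FPKM of 1.52 and 76.5% of their peaks in the exon class (68.1% to 83.2%).

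**Figure D5:**
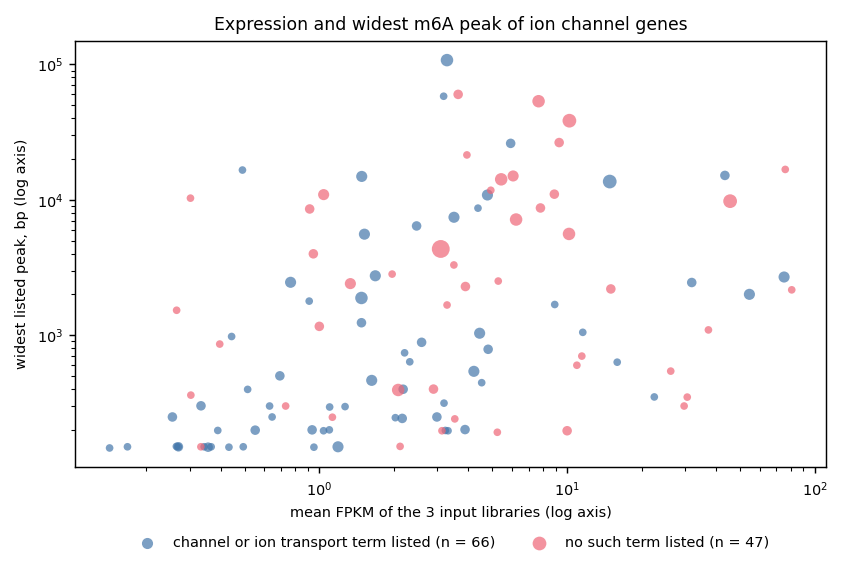
Mean FPKM of the 3 input libraries (horizontal axis, log axis) and width of the widest listed peak (vertical axis, bp, log axis) of the 113 ion channel genes above 0 FPKM, with colour for the listed terms and point area rising with the number of peaks. Over all 116 genes Spearman's rho was 0.453, and of the 32 genes above 0 and below 1 FPKM, 19 have a widest peak of at most 300 bp.

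The widest peak of a gene rose in rank with its mean FPKM across the 116 genes (Spearman's rho 0.453, and 0.624 across the 67 with a channel term), and the rho between the number of peaks and mean FPKM was 0.225. Across all 8775 genes with a peak and an FPKM these values were 0.143 and -0.003. With transcript span in place of FPKM, the rho was 0.352 for the widest peak and 0.195 for the number of peaks across the 116 genes. Across all 8775 genes it was 0.389 and 0.292. All these rhos are descriptions across genes, which are not replicates, and the points share the same 3 libraries and the same peak list. Between 1 and at least 4 peaks per gene, the median of the mean FPKM went from 2.00 (60 genes) to 6.23 (11 genes), with 2.53 and 1.68 for 2 and 3 peaks, so it did not climb step by step.

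Most ion channel genes had few peaks. A single peak was listed for 60 of 116 (51.7%, 42.7% to 60.6%), and 56 (48.3%, 39.4% to 57.3%) had at least 2, against 46.0% of all genes with a peak. At least 4 were listed for 11 (9.48%, 5.38% to 16.2%, against 7.92%). Peaks in the 3' UTR class were present on 33 genes (28.4%, 21.0% to 37.2%, against 32.1%) and in the 5' UTR class on 16 (13.8%, 8.67% to 21.2%, against 14.0%). These shares lay near those of the whole list.

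The identifier with the most peaks was *TMC4* (ENSBGRG00000019600, chromosome 20, plus strand, 52681640 to 52702020), with 9. Its 2 peaks in the 5' UTR class overlap almost entirely (52693360 to 52697654 and 52693380 to 52697630), and its 6 peaks in the 3' UTR class form 3 pairs of the same kind, so that 4 intervals are left when peaks within 100 bp are merged. The name is that of a transmembrane channel-like protein, but the listed terms are those of the CCR4-NOT complex, which shortens poly(A) tails. TES7, at 5.23 FPKM, stood apart from TES5 (2.11) and TES6 (1.94), and the mean of 3.09 fell to 2.03 without TES7. The other TMC genes had single peaks and higher expression. *TMC7* had 36.3, 32.6 and 42.8 FPKM with a 1094 bp peak annotated to exon 2 of 16, and *TMC6* had 27.8, 29.8 and 31.6 with a 300 bp peak in the 3' UTR class. *PIEZO1*, the pore of stretch-activated cation currents, had 1.61, 1.54 and 1.73 FPKM and 3 peaks of 200 to 464 bp annotated to exons 33, 40 and 46 of 46.

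*SCN8A*, the voltage-gated sodium channel Nav1.6, was the only sodium channel identifier at 1 FPKM or more in every animal, with 3.30, 3.33 and 3.20 FPKM. It carried the widest peak of all ion channel genes, 107378 bp in the 5' UTR class (chromosome 5, 79230263 to 79337640), and 3 exon class peaks annotated to exons 10, 16 and 27 of 27. The peak of that width covers introns on the genome and does not measure a methylated length of mRNA.

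The pacemaker channels *HCN2* (2.89, 2.96 and 3.84 FPKM) and *HCN3* (1.35, 0.843 and 0.935) had 1 narrow exon class peak each, of 198 and 197 bp. *HCN2* was above *HCN3* in every animal without overlap. *TRPM7*, a channel fused to a kinase that carries magnesium and zinc, led the TRP family with 4 listed peaks and with 3.73, 6.04 and 6.49 FPKM. Its peaks were annotated to exons 15, 16, 26 and 36 of 39. Those on exons 15 and 16 lie within 100 bp of each other. When they are merged 3 intervals are left, no more than another TRP gene has. *TRPV4*, an osmotically and thermally gated channel, had 0.591, 0.408 and 0.481 FPKM and a 150 bp peak in the 3' UTR class. *PKD2*, a cation channel of cilia and the endoplasmic reticulum, had 2.77, 3.73 and 3.99 FPKM and 3 peaks annotated to exons 1, 11 and 16 of 16, so that its first and last exon both carried one.

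Chloride channel genes were all expressed, with means from 3.52 to 26.2 FPKM. *CLIC4*, a chloride intracellular channel protein, was the highest with 26.2, 24.2 and 28.3 FPKM and a 543 bp peak in the 3' UTR class. *CLCN6*, an endosomal exchanger of chloride and protons, had 4.70, 4.60 and 5.03 FPKM and 3 peaks, 2 in the 3' UTR class that lie within 100 bp of each other and 1 of 10843 bp in the 5' UTR class. *CLIC1* and *CLCN5* are on 2 identifiers each, and for both the values of the 2 identifiers did not overlap (15.3 to 16.4 against 3.49 to 4.63 FPKM for *CLIC1*, and 7.09 to 10.5 against 3.32 to 4.53 for *CLCN5*). The *CLIC1* identifier with the higher values is listed with 6 exons and a channel or ion transport term. The lower *CLIC1* identifier, on the opposite strand, is listed with 24 exons and no term. Neither *CLCN5* identifier has a channel or ion transport term. *CLCN4* is listed on chromosome Y, with 4.53, 3.80 and 4.78 FPKM and an 8671 bp peak annotated to exon 10 of 12.

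The volume-regulated anion channel is a hexamer of the obligatory subunit LRRC8A with other LRRC8 subunits. *LRRC8A* had 6.61, 8.65 and 8.19 FPKM, above every value of the other 4 subunit genes, and 2 peaks annotated to exon 2 of 4. The genes *LRRC8D*, *LRRC8C* and *LRRC8B* lie in this order on chromosome 3 between 58039394 and 58682398, and 11 of the family's 14 peaks were there. *LRRC8D* had 3.97, 5.00 and 4.35 FPKM with 3 peaks, and *LRRC8C* 0.628, 0.566 and 0.460 with 2. The symbol *LRRC8B* is on 2 identifiers on opposite strands, with 3 peaks on each. ENSBGRG00000002487 (4.30, 3.37 and 4.95 FPKM) is listed with 4 exons and a channel or ion transport term. ENSBGRG00000002508 (0.915, 0.973 and 1.24) is listed with 13 exons and an RNA-directed DNA polymerase term, and with no channel or ion transport term. What the peaks of ENSBGRG00000002508 say of the anion channel cannot be told from these tables.

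Of the anoctamins, which include calcium-activated chloride channels and lipid scramblases, *ANO10* had 6.41, 6.15 and 6.13 FPKM and 4 exon class peaks, of which 3 are annotated to exons of 2 other identifiers inside its transcript. *ANO8* had 1.23, 1.496 and 1.72 FPKM and 4 peaks annotated to its own exons 2, 15, 19 and 20 of 22. *ANO6*, a scramblase, had 2.86, 3.27 and 4.79 FPKM, a 59985 bp peak in the 5' UTR class and a 151 bp peak in the 3' UTR class. Of the exon class peaks of all ion channel genes, 7 of 160 (4.38%, 2.14% to 8.75%) fell on exons listed under another identifier, against 2.77% of all exon class peaks.

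Ligand-gated channels open on acetylcholine, glutamate, GABA or ATP. The subunit genes *CHRNA5*, *CHRNA3* and *CHRNB4* of nicotinic acetylcholine receptors lie side by side on chromosome 17. Expression differed within this cluster, with 5.70, 7.02 and 5.05 FPKM for *CHRNA5*, 1.88, 1.66 and 1.02 for *CHRNA3* and 0.0951, 0.362 and 0.353 for *CHRNB4*, ranges that did not overlap. *CHRNA3* had 3 peaks, of 151 bp in the 3' UTR class and of 201 and 5570 bp annotated to exons 5 and 4 of 7. *GRIA3*, a glutamate receptor subunit, is on 2 identifiers of the X chromosome, of which ENSBGRG00000010802 had 74.2, 76.1 and 77.8 FPKM and a 16746 bp peak. That identifier is listed with a 4 exon transcript of 17426 bp and an RNA-directed DNA polymerase term, and ENSBGRG00000010760, with 20.1, 11.0 and 13.9 FPKM, with a 3 exon transcript of 3066 bp and no term. Neither has a channel or ion transport term, so what these levels say of a glutamate receptor cannot be told from these tables.

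Whether the spread between animals lay above that of the whole list differed between 2 comparisons, which differ both in measure and in the genes taken. Among the 81 ion channel genes with a mean of at least 1 FPKM, the median coefficient of variation was 16.4% (95% interval of the median 14.3% to 18.4%), against 11.9% of 7925 genes with a peak. The median SD of log2(FPKM + 1) over all 116 genes was 0.158 (0.136 to 0.179), an interval that holds the 0.145 of all genes with a peak. Among the 81 genes with a mean of at least 1 FPKM, the 5 largest coefficients of variation were those of *TMC4* (59.8%), *CHRNA2* (56.3%), *KCNG2* (ENSBGRG00000024339, 54.2%), *KCNJ4* (54.2%) and *KCNIP1* (45.6%). *CHRNA2* was low in TES7 (0.445 FPKM against 1.68 in both others), *KCNJ4*, an inward rectifier, was high in TES7 (2.39 against 0.877 and 1.18), and *KCNG2* and *KCNIP1*, a calcium-binding partner of voltage-gated potassium channels, were high in TES6 (1.79 and 4.77), so no single animal stood apart in all of them. TES5 was the lowest animal for 57 of the 113 genes above 0 (50.4%, 41.4% to 59.5%), against 41.6% of all genes with a peak. It was the highest animal for 24 (21.2%, 14.7% to 29.7%), against 35.7%. TES7 was the highest for 51 (45.1%, 36.3% to 54.3%), against 34.0%, and TES6 for 38 (33.6%, 25.6% to 42.7%), against 30.3%. The intervals cover counting error only, and these differences were not tested.

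In the order of mean FPKM, most neighbours overlapped. Of 115 neighbouring pairs, 4 had every value of the higher gene above every value of the lower one, namely *ATP1B1* above *CACNA1H*, *CLCN7* above *CLIC1*, *ATP2B1* above *CACNB3*, and the pair of the lowest gene above 0, *P2RX6*, and the highest in order at 0. The 3 at the top, *KCNH4*, *GRIA3* and *ATP1B1*, overlapped with one another. Read within each animal, 12 of the 115 pairs had the higher gene above the lower one in all 3 animals, *KCNH4* above *GRIA3* among them.

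Other genes of ion transport, from a list of 60 symbols that the name pattern leaves out, had a peak in 19 cases, with 28 peaks on 21 identifiers. *CALM3*, a calmodulin gene whose product tunes many channels, had 352, 266 and 231 FPKM, and *AQP8*, a water channel, had 193, 142 and 167, both above every ion channel gene named here. *CATSPERG*, an auxiliary subunit of the CatSper calcium channel of sperm, had 6.28, 5.74 and 3.48 FPKM and 3 peaks. *VDAC1* of the outer mitochondrial membrane (26.6 ± 1.35, SD, n = 3) had 1 peak. No channel or ion transport term is listed for *CATSPERG*, *VDAC1* or *CALM3*, whereas *AQP8* has one. What the levels of *CATSPERG* and *VDAC1* say of these channels cannot be told from these tables. At 1 FPKM or more in every animal stood 16 of the 21 identifiers.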

How the data were processed

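MeRIP-seq of testis from 3 cattle-yaks gave 1 IP and 1 input library each. According to the submitters' processing notes and the study's methods, the authors trimmed reads with Trimmomatic, aligned them with HISAT2 2.0.4 to LU_Bosgru_v3.0 (Ensembl release 99), called peaks with MeTDiff against the input and annotated them with ChIPseeker. The deposited peak list gives positions, annotation class, gene and ontology terms for the pooled group, with no score. The other deposited table holds FPKM per gene (20953 genes) for each input library, made by the authors with a program not given in the sources used here. FPKM keeps no read numbers and the sequencing depth stated in the study was not used here, so single genes have neither a counting interval nor a floor.

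Ion channel genes were taken by symbol pattern. Peaks were counted as listed, shares have Wilson 95% intervals and medians order-statistic 95% intervals, both for counting error only, and FPKM values are means ± SD over the 3 animals, which bound only the spread between them. With 1 condition, no test was run. Of the 8986 identifiers with a peak, 8775 are in the FPKM table. Python 3.11.15, pandas 2.3.3 and SciPy 1.17.1 served, and the merging and intervals were tested on simulated data. The members, gene lists and named genes were chosen with earlier results of these data known. The genes named were, by family, those with the most peaks and the highest FPKM, the 5 with the most peaks, highest FPKM, largest coefficient of variation (mean of at least 1), widest peaks and most 3' UTR class peaks, a list of 35 sperm and testis genes (20 with a peak) and symbols on more than 1 identifier. Some genes that fall under this rule are not reported here. *KCNA3*, *KCNA4*, *KCNS3*, *KCNF1*, *KCNH7*, *KCNJ6*, *TMC6*, *CLCN4*, *CLCN7*, *CACNA1G*, *CHRNA5*, *CHRNB4*, *P2RX6*, *ITPRIP*, *ITPRIPL1*, *ITPRIPL2* and those of the other 60 symbols were picked after seeing their values. A genome sequence of this build was not used here, so no sequences are shown.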

Additional observations from a re-analysis of the deposited data

How the results depend on the processing

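Under the alternatives tried, 57 values of the summary results stayed within the spread or within 1.5 times the count and 19 did not. Means of named genes moved by less than 1 SD when libraries were rescaled. With n = 3, dropping an animal always shifts a mean by under 1 SD, so that comparison says nothing of stability, and the means of *TMC4* and the second *CACNA1H* identifier moved by over 1.5 times, from 3.09 to 2.03 without TES7 and from 0.397 to 0.214 without TES5. Restricted to peaks of at most 1000 bp, 136 of the 217 peaks remained, with 63.4% of genes on a single peak, 25.0% of peaks in the 3' UTR class and 41.5% of exon class peaks on a last exon (35.8% over the whole list). That share was 25.6% over all widths and 15.8% in transcripts of 3 or more exons (18.2% and 11.6% over the whole list). Weighted by width, the 3' UTR class held 4.20% and the 5' UTR class 27.7%, so their order was reversed. That weighting counts introns, and the 5' UTR class includes the peaks of *SCN8A* (107378 bp) and *ANO6* (59985 bp). Restricted to the 72 genes that reached 1 FPKM in every library, the median width was 741 bp, 55.5% of peaks were of at most 1000 bp and the median of the mean FPKM was 4.48. Restricted after seeing the data to genes with a channel or ion transport term, 67 genes with 119 peaks were left, with a median width of 301 bp, 71.4% of peaks of at most 1000 bp, 36 genes at 1 FPKM or more in every library and a median of the mean FPKM of 1.52. Without the 5 genes of accessory proteins that median was 2.21. The median SD of log2(FPKM + 1) between animals, 0.158, became 0.236 with a pseudocount of 0.1. Leaving out each animal in turn gave 72 to 77 genes at 1 FPKM or more in every library and a median of the mean FPKM of 2.36 to 2.46. Without *TMC4*, also chosen after seeing the data, no summary value moved. The cause of these shifts was not tested beyond what each restriction itself removes. No paired analysis was possible because the 3 animals share 1 pooled list of peaks, the FPKM values are of input libraries only and there is no contrast between groups. The planned count of DRACH motifs in the peaks was not run, since it needs a genome of this build.

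The pooled list limits every statement on peaks, since no spread between animals can be given for a peak. The symbols are those of the peak list, and 9 of them are on 2 identifiers each. With no read numbers, a gene listed at 0 FPKM cannot be told from one that was not estimated.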
